A study of Homo sapiens with 6 samples.

Results

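The genes described are the chromosome 19 ZNF genes, the protein-coding genes on human chromosome 19 whose symbol is ZNF followed by a number alone. The GENCODE 29 annotation of GRCh38 holds 241 of them. Of these, 175 were listed in the deposited table and 66 were not analysed here, against 17211 listed genes in all. All 175 passed the filter on low values, which 17200 of the listed genes passed. They were measured by poly(A) RNA-seq in CAOV2 cells, a human ovarian cancer cell line that the sample titles also describe as primary cells. One group of 3 libraries (siYAP) came from cells transfected with an siRNA reagent against YAP, and the other group of 3 (siNT) from cells given a non-targeting siRNA. Both groups received 100 pmol of siRNA with 6 µL of lipid reagent for 2 days and were collected on day 3. The reagents were bought from different suppliers, so effects of the reagent and of losing YAP cannot be told apart. The labels name biological replicates without saying whether separate cultures were used, and p-values therefore measure the spread between these libraries, which may be technical.

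Zinc finger proteins of this family bind DNA through a row of short loops, each held around a zinc ion by a pair of cysteines and a pair of histidines. Many of them also carry a KRAB domain near the start of the protein, which binds the corepressor TRIM28 and through it brings histone methylation and heterochromatin proteins to the bound site. They are best known as repressors of transposable elements, and in primates they spread by tandem duplication, which left long arrays of related genes on chromosome 19. YAP, the target of the siRNA, is a transcriptional co-activator that works with TEAD transcription factors.

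The KRAB box sets apart 1 of the classes compared below, and its coding sequence is shown for 8 members that rose and for the 4 with a box that fell. In each stretch of 33 bases, read 5′ to 3′ on the coding strand from the annotated coding sequences, the capitals mark the codons of the searched pattern: aspartate, valine or leucine, then phenylalanine, glutamate, and tryptophan or leucine at the end. The stretches of ZNF28 and ZNF468 are the same letter for letter, as are those of ZNF93 and ZNF708, which lie in another array.
ZNF28 (chr19:52808083-52808115, minus strand): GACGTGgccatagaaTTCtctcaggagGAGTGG
ZNF468 (chr19:52849163-52849195, minus strand): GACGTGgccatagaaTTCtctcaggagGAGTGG
ZNF836 (chr19:52160541-52160573, minus strand): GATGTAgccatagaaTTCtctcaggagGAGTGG
ZNF615 (chr19:52002231-52002263, minus strand): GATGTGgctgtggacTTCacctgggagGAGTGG
ZNF708 (chr19:21310577-21310609, minus strand): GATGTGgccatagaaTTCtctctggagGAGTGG
ZNF93 (chr19:19915298-19915330, plus strand): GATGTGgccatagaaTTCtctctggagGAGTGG
ZNF233 (chr19:44266216-44266248, plus strand): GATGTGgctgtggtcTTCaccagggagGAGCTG
ZNF227 (chr19:44228464-44228496, plus strand): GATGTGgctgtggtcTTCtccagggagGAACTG
ZNF324 (chr19:58469198-58469230, plus strand): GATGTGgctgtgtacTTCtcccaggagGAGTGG
ZNF114 (chr19:48282389-48282421, plus strand): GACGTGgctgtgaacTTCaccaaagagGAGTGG
ZNF557 (chr19:7076399-7076431, plus strand): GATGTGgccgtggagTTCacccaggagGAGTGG
ZNF850 (chr19:36762381-36762413, minus strand): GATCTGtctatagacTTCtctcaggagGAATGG

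The second complete finger of 4 members shows how unlike in base composition these genes are while the fingers keep their frame. Capitals mark the codons of the cysteines and histidines that hold the zinc ion. GC content is 68.3% in the finger of ZNF787, which fell, 41.3% in that of ZNF468 and 31.7% in that of ZNF708, which both rose, and 39.7% in that of ZNF146, which did not pass the test.
ZNF468 (chr19:52841415-52841477, minus strand): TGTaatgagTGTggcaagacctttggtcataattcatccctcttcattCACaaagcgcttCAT
ZNF708 (chr19:21294312-21294374, minus strand): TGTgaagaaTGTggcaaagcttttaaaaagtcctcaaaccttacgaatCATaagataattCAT
ZNF146 (chr19:36236576-36236638, plus strand): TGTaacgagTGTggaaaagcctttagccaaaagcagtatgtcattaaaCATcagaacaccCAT
ZNF787 (chr19:56088824-56088886, minus strand): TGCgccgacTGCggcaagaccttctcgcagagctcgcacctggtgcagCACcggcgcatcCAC

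The deposited values are normalized read counts, that is, read counts divided by a size factor for each library. The reads behind them came to 25478595 to 31790340 per library. YAP1 stood at 5992 ± 213 normalized read counts in siNT and 299.6 ± 24.7 in siYAP (SD, n = 3), or 5.00% of control. Epithelial keratins were abundant and no endothelial marker of 3 was listed. The summed level of the 6 listed epithelial markers, most of it from KRT8, KRT18 and KRT19, was 74947 to 81426 in siNT and 60996 to 67199 in siYAP, of the 3 listed fibroblast markers 1438 to 1506 and 1589 to 1619, and of the 2 listed immune markers 114.1 to 125.7 and 106.6 to 130.5. Single markers moved in both directions: EPCAM was at 491.8 to 512.0 in siNT and 808.4 to 862.7 in siYAP, CDH1 at 239.4 to 270.7 and 462.9 to 524.7, COL1A2 at 10.7 to 15.7 and 0.951 to 1.81, and PDGFRA at 1013 to 1068 and 1220 to 1245. The müllerian marker PAX8 was at 13.3 to 44.9 and WT1 was not among the listed genes. Whether these shifts had a part in the results was not tested. In bulk RNA, fewer cells of a kind and less RNA per cell cannot be told apart.

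Most chromosome 19 ZNF genes that changed were higher after YAP siRNA. Of 175 members, 91 rose (52.0%), 16 fell (9.14%) and 68 did not pass the test, which was limma on log2(value + 1) with Benjamini-Hochberg adjustment over all 17200 tested genes and a threshold of 0.05. Over all tested genes, 28.6% were called higher, 28.1% lower and 56.8% in either direction. Among the 2609 genes whose mean lay between the lower and upper quartiles of the members' means, 35.9% were called higher and 23.5% lower. Fold changes below keep the log2(value + 1) scale, on which the added 1 shrinks the change of a low gene. They are differences of mean logs, so for low genes with uneven libraries they can also exceed the ratio of the means. ZNF701, for example, had a ratio of means of 1.02 and a fitted log2 fold change of 0.36. The members' median log2 fold change was 0.36, against 0.00 over all tested genes, and 140 members (80.0%) had a value above 0. In 96 members every siYAP library lay above every siNT library and in 16 every one lay below, where 30.9% and 30.6% of all tested genes did so. The changes were moderate, since 10 called members rose at least 2-fold and none fell that far.

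The same shift was seen in each library. The summed level of the 175 members was 57349, 56205 and 57101 normalized read counts in siNT replicates 1, 2 and 3 and 60529, 61604 and 62494 in the siYAP replicates. The median member stood at 150.8, 135.7 and 140.2 in siNT and 184.9, 195.4 and 190.2 in siYAP. No siYAP library overlapped an siNT library in either measure, and the gap was wider for the median member than for the sum, which the few abundant members dominate. With every library scaled to the same total, 106 members were higher and 6 lower. All tested genes then split into 6050 higher and 3700 lower, from 4926 and 4841 with the authors' size factors, and their median moved by 0.09. The count of members that fell was the less steady, at 9 without siNT replicate 3, 10 without siYAP replicate 2 and 10 without siYAP replicate 3.

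ZNF genes on other chromosomes were more evenly split. Of 206 tested there, 64 rose and 48 fell, with a median log2 fold change of 0.05. The 800 other tested protein-coding genes of chromosome 19 leaned the other way, with 178 higher, 341 lower and a median of -0.12. Median transcript GC content was 42.4% for the members, 45.7% for the ZNF genes elsewhere and 61.3% for the other chromosome 19 genes. Median levels were 171.7, 382.1 and 1074 normalized read counts in that order. The sets thus differ in base composition and level as well. The difference between these sets was not tested, since the genes were chosen with results known, and the values are a description.

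**Figure D1:**
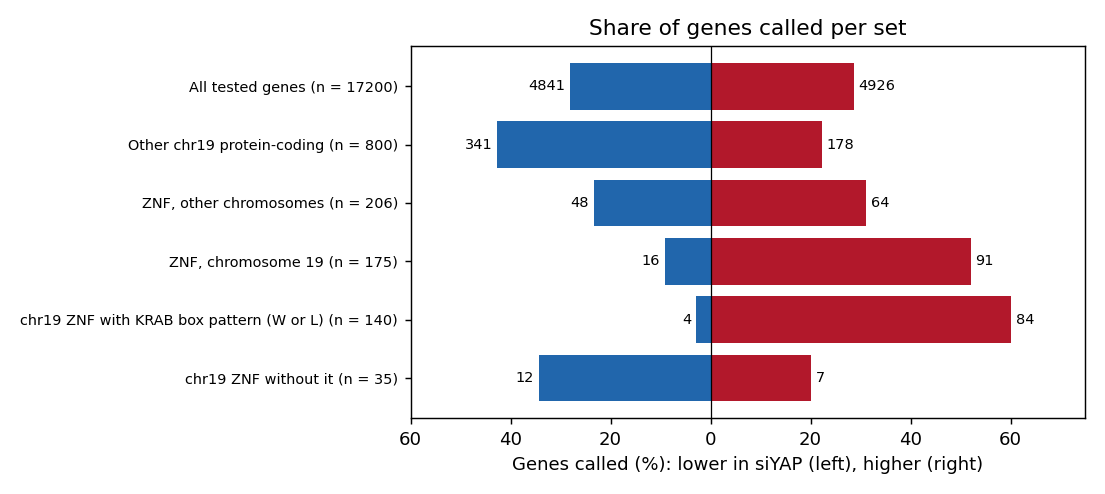
Share of genes called lower (left, blue) or higher (right, red) in siYAP by limma at an adjusted p under 0.05, in percent of each set, with the number of genes beside each bar. The chromosome 19 ZNF genes had 91 higher and 16 lower of 175, and those with a KRAB box pattern 84 higher and 4 lower of 140.

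Among called members with a mean of at least 20, the 10 steepest rises were in KRAB zinc finger genes of 3 arrays. ZNF836 (ENSG00000196267, chromosome 19, 52153864 to 52171643) was at 22.0, 16.03 and 16.9 normalized read counts in siNT and 33.5, 54.3 and 63.7 in siYAP. All siYAP libraries lay above all siNT libraries, though at low counts and with a wide spread, and the log2 fold change was 1.38 (standard error 0.25; limma, adjusted p = 5.48e-05). ZNF233 (ENSG00000159915, 44259880 to 44275317) read 15.7, 18.2 and 19.3 in siNT and 52.6, 35.5 and 49.5 in siYAP, a log2 fold change of 1.31. Again no libraries overlapped.

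ZNF708 (ENSG00000182141, 21291160 to 21329425, minus strand) gave the firmest rise. Its level was 233.5, 233.0 and 228.4 normalized read counts in siNT and 505.7, 583.3 and 591.6 in siYAP. The siNT libraries were nearly equal, and a wide gap separated the highest of them from the lowest siYAP library. The means were 231.6 ± 2.82 and 560.2 ± 47.4 (SD, n = 3), which is a 2.42-fold rise (log2 1.27, standard error 0.08; limma, adjusted p = 1.25e-11). In the same array ZNF93, known as a repressor of LINE-1 elements, was at 15.7, 7.48 and 23.0 in siNT and 36.2, 27.6 and 44.7 in siYAP (log2 1.28, standard error 0.32). The groups did not overlap but lay close together. ZNF91, known as a repressor of SVA elements and with 31 predicted fingers the longest finger row among the members, read 136.1, 127.2 and 125.7 in siNT and 184.9, 211.2 and 265.4 in siYAP. Its log2 fold change was 0.75 (limma, adjusted p = 1.69e-05). ZNF675, reported as a brake on TRAF6 signalling, rose from 58.6, 58.8 and 64.05 to 142.3, 107.6 and 117.0, without overlap, at log2 0.99.

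ZNF28 and ZNF468, whose printed KRAB stretches are identical, rose side by side. ZNF28 (ENSG00000198538, 52797409 to 52857600, minus strand) was at 229.3, 175.3 and 235.6 normalized read counts in siNT and 487.5, 500.4 and 518.4 in siYAP. ZNF468 (ENSG00000204604, 52838008 to 52890375, minus strand) was at 303.7, 318.5 and 276.7 in siNT and 580.9, 671.2 and 684.8 in siYAP. In both genes each siYAP library stood far above the siNT libraries. Their log2 fold changes were 1.24 and 1.10, with standard errors of 0.10 and 0.08 (limma, adjusted p = 3.98e-10 and 1.21e-10). Their exons overlap by 29 bases on the same strand, ZNF468 overlaps ZNF320 by 6021 bases, and 16.5% and 18.3% of their coding 50-base stretches occur in transcripts of another gene, so part of their reads may have been shared. How the counting treated such reads is not given in the sources used here.

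ZNF765 and ZNF615 lie in the same array, and both rose about as far. ZNF765 (ENSG00000196417) went from 236.7, 196.7 and 230.8 normalized read counts to 418.7, 463.9 and 469.9, at log2 1.03 (standard error 0.09; limma, adjusted p = 2.04e-09). ZNF615 (ENSG00000197619) went from 142.4, 151.8 and 153.5 to 286.4, 299.1 and 296.8, at log2 0.97 (limma, adjusted p = 9.44e-09). Replicates of ZNF615 had a small spread in both groups, at 149.2 ± 5.96 and 294.1 ± 6.77 (SD, n = 3), and 1.63% of its 50-base stretches are shared. ZNF284, by contrast, is uncertain as a gene of its own. Its values were 32.5, 17.1 and 14.5 in siNT and 35.3, 44.4 and 52.3 in siYAP (log2 1.08), its highest siNT library came near its lowest siYAP library, and 100% of its coding 50-base stretches also occur in transcripts of another annotated gene.

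**Figure D2:**
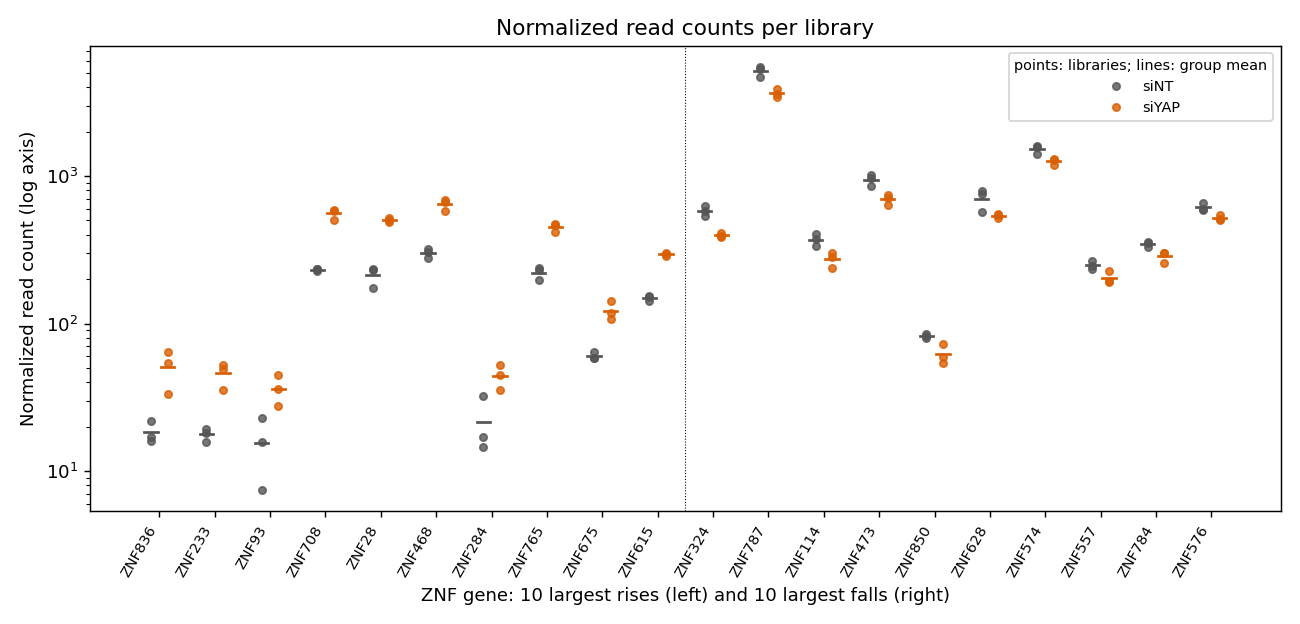
Normalized read counts (log axis) of the members with the 10 largest rises and the 10 largest falls among called members whose groups do not overlap and whose mean reaches 20; points are the 3 libraries of a group and lines their mean. ZNF708 separates by about 2.42-fold with little spread, while ZNF836, ZNF93 and ZNF284 sit at low counts with a wide spread.

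Below a mean of 20 normalized read counts, 18 members were too low for firm values, and 4 of them were called, all higher. ZNF90 had the largest fitted value of all members (log2 1.71, standard error 0.62), but it read 5.24, 5.34 and 0 in siNT and 15.4, 4.94 and 13.3 in siYAP, so that 1 siYAP library lay below 2 siNT libraries. ZNF461, which lacks a KRAB box pattern and lies in another array, was clearer, at 6.28, 9.62 and 8.46 in siNT and 19.03, 26.6 and 19.97 in siYAP (log2 1.33; limma, adjusted p = 0.000960). ZNF563 and ZNF491 had fitted values of 1.58 and 1.44 and did not pass. ZNF563 was at 0 in siNT replicates 1 and 3 and at 9.97, 0.987 and 2.85 in siYAP. At this depth 1 read is worth 0.906 to 1.21 normalized read counts, so such levels rest on a few reads. Among the 142 members with a mean of at least 50, 77 rose and 16 fell.

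Most rises were in members with a KRAB box. With the pattern ending in tryptophan, 124 members had a KRAB box, of which 73 rose, 4 fell and 47 did not pass, with a median log2 fold change of 0.42. Of the 51 without this pattern, 18 rose and 12 fell, with a median of 0.13. The array from ZNF575 to ZNF180 mostly ends its box in leucine, as ZNF233 and ZNF227 above, and was missed by the first pattern. With tryptophan or leucine, an alternative added after the data were seen, 140 members had a box, with 84 higher, 4 lower and a median of 0.43. The 35 members left without one had 7 higher, 12 lower and a median of -0.10. Their median coding GC content was 62.1%, against 42.2% for those with a box, and their changes cannot be told apart from base composition by this split. With equal totals, the first pattern gave 83 higher and 2 lower with a box and 23 higher and 4 lower without one. The ZNF genes of other chromosomes divided less: 26 of 73 with the first pattern rose and 14 fell, at a median of 0.13, and 38 of 133 without it rose and 34 fell, at a median of 0.00. The contrast between members with and without a box was not tested.

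The 7 members without a box that rose were mixed. ZNF83 (14 predicted fingers) read 31.4, 29.9 and 52.0 in siNT and 70.7, 79.9 and 65.6 in siYAP, at log2 0.95, with no overlap. ZNF714, ZNF121, ZNF260 and ZNF507 rose by smaller steps, with log2 fold changes of 0.51, 0.24, 0.20 and 0.29. The others were ZNF461, given above, and ZNF575 (log2 0.81), the only member called higher with a coding GC content of 60% or more. An annotated protein may lack a box that another isoform carries, and only 1 coding sequence per gene was searched.

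Members also divided by base composition. Of 23 members with a coding GC content of at least 60%, 1 rose, 12 fell and 10 did not pass, at a median log2 fold change of -0.15. Of the 152 members below 60%, 90 rose and 4 fell, at a median of 0.42. Among the 35 members without a box, 1 rose and 11 fell of the 21 at 60% or more. Of the 14 below, 6 rose (42.9%) and 1 fell, at a median of 0.22. Of the 138 members with a box below 60%, 84 rose (60.9%) and 3 fell, at a median of 0.43. Of the 2 with a box at 60% or more, none rose and 1 fell. Across the 175 members the Spearman correlation of the log2 fold change was -0.50 with coding GC content, -0.37 with mean level, 0.19 with the number of fingers and 0.15 with coding length. These correlations are across genes, which share libraries and ancestry and are not independent replicates. Finger number separated only the shortest rows. Of 11 members with 1 to 5 fingers none rose and 6 fell. Rises numbered 25 of 51 with 6 to 10, 40 of 74 with 11 to 15 and 25 of 38 with 16 or more. The members with 1 to 5 fingers were also rich in GC, at a median transcript GC content of 62.6%. The other finger classes had medians of 41.1% to 42.6%. ZNF738, which rose (log2 0.41), had 0 fingers in its annotated coding sequence.

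Genes of low GC content as a whole also leaned upwards, by less than the members. With a transcript GC content under 42%, the 73 members had a median of 0.46, with 51 higher and 1 lower. All 3567 tested genes in that range had a median of 0.11, with 38.1% higher and 20.2% lower. From 42% to 46%, the 57 members had a median of 0.46, with 33 higher and none lower. All 2700 tested genes there had a median of 0.06, with 33.1% higher and 24% lower. From 46% to 60%, the 25 members had a median of 0.06, with 6 higher (24%) and 4 lower. All 7674 genes there had a median of -0.05, with 24.6% higher and 31.8% lower. In this range the members' share of rises was thus near that of all genes. At 60% and above, the 20 members had a median of -0.16, with 1 higher and 11 lower. The 2791 genes there had a median of -0.07, with 25.1% higher and 33.6% lower. When library curves over transcript GC content were subtracted, an alternative added after the data were seen, 87 members were higher and 16 lower, and the members' median was 0.29.

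**Figure D3:**
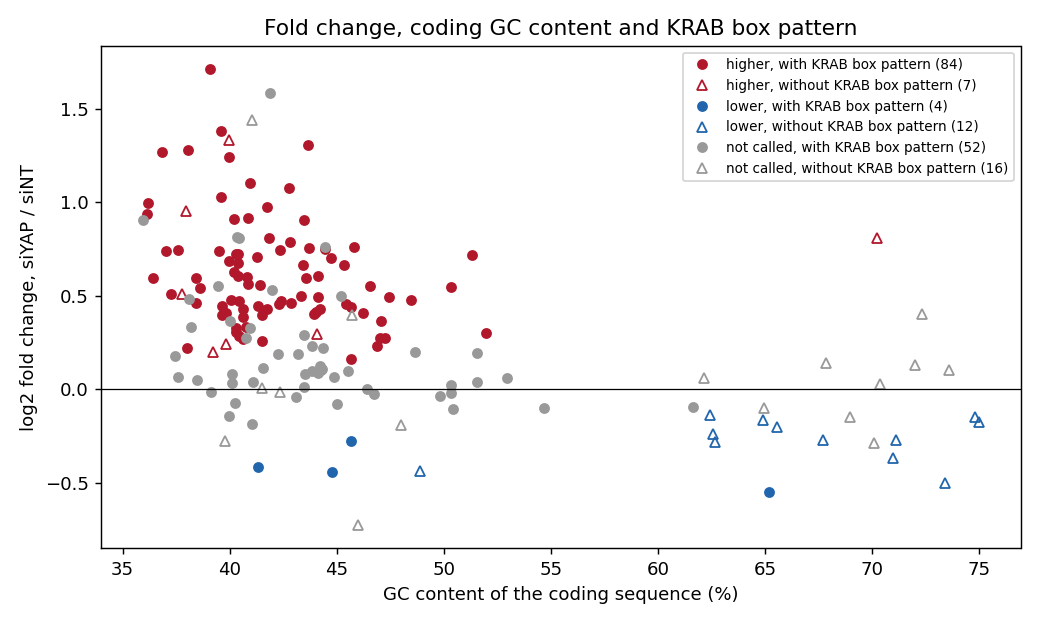
Log2 fold change (siYAP over siNT, log2(value + 1) scale) of the 175 members against the GC content of their coding sequence in percent; filled circles have a KRAB box pattern ending in tryptophan or leucine, open triangles have none, and colours show the limma call. The 23 members at 60% or more hold 1 of the 91 rises and 12 of the 16 falls.

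By position, members were split into arrays wherever neighbouring ZNF genes start more than 500 kb apart, and 9 arrays had 5 or more tested members. They are named by their first and last annotated member. In 8 of the 9 the median log2 fold change was above 0. Beside the array counts below, 28.6% of all tested genes were called higher and 28.1% lower. Of genes between the quartiles of the members' means, 35.9% were called higher and 23.5% lower. The array from ZNF175 to ZNF331 (chromosome 19, 51571298 to 53580269) moved most uniformly, with all 29 tested members above 0, 25 of them called higher, none lower, and a median of 0.60. A row of 12 consecutive tested members from ZNF577 to ZNF480 (51804816 to 52325922) was called higher without a break, the longest such row on the chromosome. Besides the genes above, ZNF613 went from 81.7, 77.0 and 65.3 to 133.2, 139.2 and 148.4 (log2 0.91) and ZNF525 from 140.3, 112.2 and 126.9 to 224.7, 252.7 and 235.9 (log2 0.91), each without overlap. ZNF350, known as ZBRK1 and as a partner of BRCA1, rose from 97.4, 93.0 and 100.3 to 143.2, 129.3 and 175.0 (log2 0.61). The 4 members that did not pass were ZNF175, ZNF578, ZNF701 and ZNF888, of which the last 3 have means of about 7 to 12 normalized read counts in each group.

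The array from ZNF101 to ZNF254 (19668796 to 24129961), which borders the centromere, had 20 tested members, all above 0, with 15 called higher, none lower, and a median of 0.55. It also held the largest share of members not analysed here, 17 of 37. ZNF708 had its smallest p. ZNF506 rose from 207.3, 152.9 and 155.9 to 276.4, 281.3 and 298.7 (log2 0.74) and ZNF493 from 57.6, 31.0 and 37.5 to 76.1, 72.1 and 88.5 (log2 0.94), both without overlap. ZNF101, at its edge, differed by a log2 of 0.10 and did not pass.

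The array from ZNF575 to ZNF180 (43525497 to 44500524) had 13 of 21 members higher and 2 lower, with a median of 0.43. ZNF227 (ENSG00000131115) had its smallest p, with 291.1, 265.1 and 277.9 normalized read counts in siNT and 455.8, 451.1 and 505.0 in siYAP, a clear separation. It rose by 0.76 on the log2 scale (standard error 0.08; limma, adjusted p = 3.98e-08), though 970 bases of its exons overlap ZNF235 on the other strand. ZNF226 (log2 0.79), ZNF112 (log2 0.74) and ZNF234 (log2 0.66) rose beside it, as did ZNF224, a repressor of aldolase A transcription, by 0.40. The falls, ZNF576 and ZNF428, lie at the near end of the array and lack a box. Only 1 member was lower without siNT replicate 2, without siYAP replicate 2 or without siYAP replicate 3, and none with equal totals.

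The array from ZNF653 to ZNF791 (11483427 to 12640098) had 8 of 16 tested members higher, none lower and a median of 0.48. ZNF627 had its smallest p, at 298.4, 267.2 and 264.6 in siNT and 399.6, 392.8 and 379.5 in siYAP (log2 0.50), and ZNF441 rose further, from 138.2, 114.4 and 103.9 to 178.5, 195.4 and 213.1 (log2 0.72). In the last array before the chromosome end, ZNF264 to ZNF446 (57191500 to 58481230), 15 of 31 rose and 2 fell, at a median of 0.27. Only 1 fell without siNT replicate 3, without siYAP replicate 3 or with equal totals. Leaving out 1 library gave 12 to 14 higher and 1 to 3 lower in this array. ZNF776 had its smallest p, with 330.9, 256.5 and 290.0 in siNT and 444.0, 536.0 and 494.6 in siYAP (log2 0.75; limma, adjusted p = 4.42e-07). ZNF417 and ZNF587, near-identical genes known to bind HERV-K elements, rose by 0.46 and 0.16. Since 66.6% of the coding 50-base stretches of each occur in another gene's transcripts, their split is uncertain. ZNF274, which is known to bring heterochromatin to ZNF gene arrays, read 529.8, 441.5 and 480.9 in siNT and 520.2, 477.7 and 510.8 in siYAP and did not pass (log2 0.06).

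Other arrays moved little. In ZNF565 to ZNF573 (36182060 to 37817300), 7 of 17 members rose (41.2%) and 1 fell, at a median of 0.11. Its count of rises was 4 without siNT replicate 2, without siNT replicate 3, without siYAP replicate 2 and without siYAP replicate 3. No member of it fell without siNT replicate 1, siNT replicate 3, siYAP replicate 1 or siYAP replicate 2. Its median was 0.28 without siNT replicate 1, 0.05 without siNT replicate 3, 0.17 without siYAP replicate 2 and 0.04 with DESeq2. ZNF529 had its smallest p, with 190.6, 152.9 and 151.1 in siNT and 218.4, 250.7 and 248.2 in siYAP (log2 0.54). In ZNF302 to ZNF792 (34677639 to 34964049), ZNF302 alone of 5 rose, from 358.1, 348.5 and 366.1 to 424.1, 546.8 and 513.6 (log2 0.46), and the array's median of 0.04 changed sign in 3 alternatives. In ZNF414 to ZNF846 (8509678 to 9793180), 4 of 11 rose (36.4%), near the 35.9% of genes between the quartiles of the members' means, and none fell. The median was 0.08, with 2 higher without siNT replicate 3 and 2 without siYAP replicate 3. ZNF561 had its smallest p, with 492.2, 466.0 and 494.2 in siNT and 678.7, 710.7 and 748.5 in siYAP (log2 0.56).

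**Figure D4:**
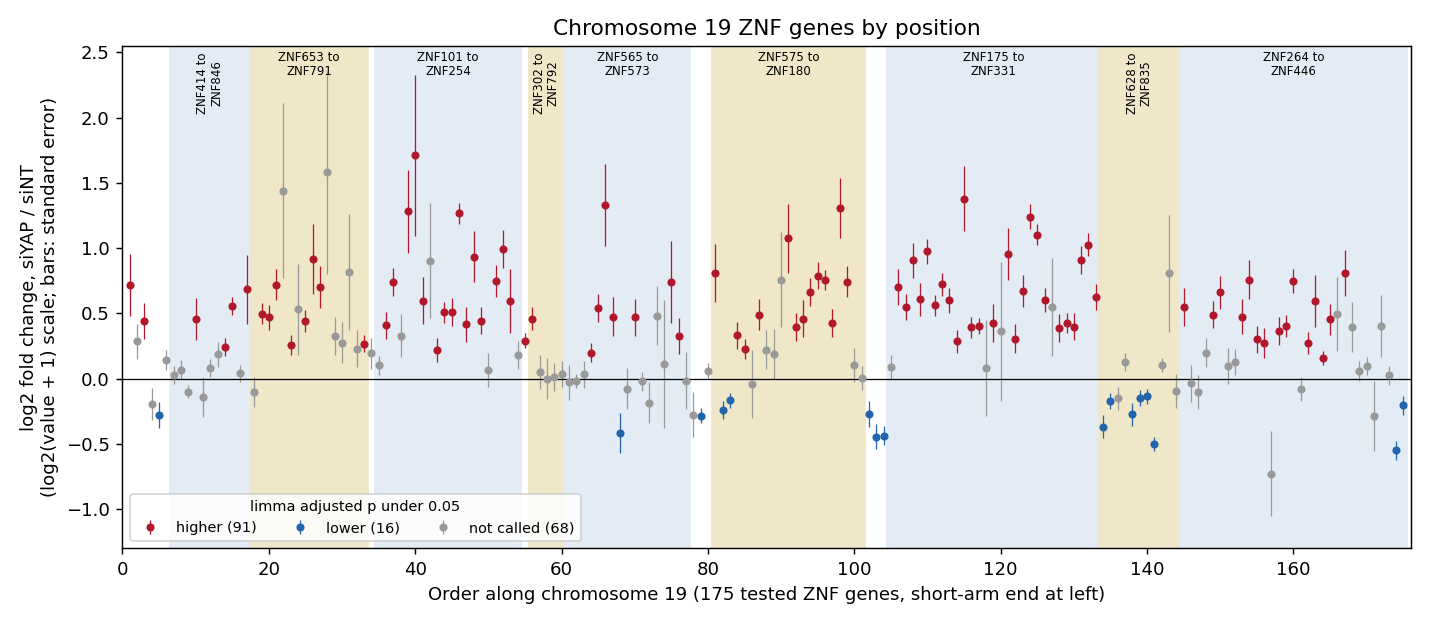
Log2 fold change (siYAP over siNT, log2(value + 1) scale) of each tested member in its order along chromosome 19, with bars for the standard error and colours for the limma call; shaded bands are the 9 arrays with 5 or more tested members. The band from ZNF175 to ZNF331 holds 25 rises of 29 members, and the next band, ZNF628 to ZNF835, none of 11.

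The array from ZNF628 to ZNF835 (55476332 to 56671783), the next after the most uniform rises, went the other way. None of its 11 tested members rose and 6 fell, at a median of -0.15, and 4 consecutive members from ZNF784 to ZNF787 were called lower. Only 2 of these 11 have a KRAB box pattern. The 11 had a median transcript GC content of 67.8% and a median level of 873.5 normalized read counts. Over all members these were 42.4% and 171.7. Position can therefore not be told apart from base composition, level or the lack of a box. The falls were small and the count moved: 3 members fell without siNT replicate 2, without siNT replicate 3, without siYAP replicate 2 or without siYAP replicate 3. With equal totals 2 fell and 2 rose, and 1 rose without siNT replicate 2 or without siYAP replicate 3. The median was -0.09 without siYAP replicate 3.

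ZNF787 (ENSG00000142409, chromosome 19, 56087366 to 56121280, minus strand) carried the firmest fall. It read 4684, 5309 and 5485 normalized read counts in siNT and 3889, 3618 and 3421 in siYAP. Every siYAP library was below every siNT library. The means were 5159 ± 421 and 3643 ± 235 (SD, n = 3; log2 -0.50, standard error 0.06; limma, adjusted p = 1.13e-07). In the same array ZNF628 fell from 569.6, 750.4 and 787.9 to 551.9, 521.1 and 543.1 (log2 -0.37), with its lowest siNT library close to siYAP, and lost its call without the variance trend (limma, adjusted p = 0.0650). ZNF784 fell from 328.8, 355.9 and 352.9 to 300.0, 256.6 and 302.5 (log2 -0.27), and its call was lost without siYAP replicate 2 (adjusted p = 0.0897, limma).

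Of the 10 falls elsewhere, 5 lay in the arrays above and 5 outside arrays of this size. ZNF473, also known as ZFP100 and a component of the machinery that forms the ends of histone mRNAs, read 971.7, 853.0 and 1015 in siNT and 640.7, 713.6 and 740.0 in siYAP. The groups were well apart (log2 -0.44, standard error 0.07; limma, adjusted p = 1.64e-05). ZNF574 fell from 1420, 1599 and 1569 to 1306, 1282 and 1179 (log2 -0.28). ZNF114, one of the few KRAB members that fell, went from 375.9, 334.6 and 402.4 to 282.7, 236.9 and 298.7 (log2 -0.44; limma, adjusted p = 0.000411). Exons of ZNF473 and ZNF114 overlap genes on the other strand by 223 and 114 bases, and the strand setting of the counting was not stated.

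ZNF324 had the largest called fall (log2 -0.55, standard error 0.07; limma, adjusted p = 1.31e-06). It was at 582.2, 539.8 and 629.6 in siNT and 411.4, 388.9 and 392.8 in siYAP, with a wide gap between groups. Its exons share 1420 bases on the same strand with ZNF446, which also fell (log2 -0.20), and 31.7% of its coding 50-base stretches occur in another gene's transcripts, most in ZNF324B, which was lower as well (log2 -0.39). ZNF850 (log2 -0.42), ZNF557 (log2 -0.28), ZNF576 (log2 -0.24) and ZNF428 (log2 -0.17) had smaller falls that lost their call in 6, 5, 1 and 7 of 18 alternatives. Without siYAP replicate 2, for example, ZNF850 had an adjusted p of 0.114 (limma). The members lower in every alternative were ZNF574, ZNF114, ZNF473, ZNF787 and ZNF324, while 65 members were higher in every one.

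The most abundant members did not rise. Per kilobase of exon in siNT, ZNF787 stood at 1405 normalized read counts, ZNF146 at 1373, ZNF428 at 1076, ZNF581 at 705.3 and ZNF317 at 381.4, against a median of 27.0 over the members. ZNF146, which consists of fingers alone and is also called OZF, read 6136, 5338 and 5601 in siNT and 5309, 5654 and 5891 in siYAP, overlapping fully. Its log2 fold change of -0.02 did not pass (limma, adjusted p = 0.796) and changed sign with equal totals. After the GC correction it was called lower (log2 -0.14; limma, adjusted p = 7.06e-05). ZNF581 fell by 0.14 on the log2 scale, a call that was lost in 13 of 18 alternatives, and ZNF317 differed by -0.10 without passing, though it was called lower after the length correction (log2 -0.15; limma, adjusted p = 0.0104). Among members with a mean of at least 100, ZNF180, ZNF30, ZNF875 and ZNF584 lay nearest to 0 besides ZNF146, with log2 fold changes of 0.00, 0.01, -0.02 and 0.02. All of them overlapped between groups.

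Pooled over the arrays, interspersed genes without zinc finger names did not share the members' lean upwards. Inside the arrays, 29 other protein-coding genes that are not named as zinc finger genes were tested: ADAMTS10 rose, 11 fell and 17 did not pass, at a median of -0.10. That is 37.9% lower and 3.45% higher, against 28.1% and 28.6% of all tested genes. Among the 800 other protein-coding genes of chromosome 19, which include them, 42.6% were lower and 22.25% higher, at a median of -0.12. The falls of the 29 were thus near the share of that set. Median transcript GC content was 59.3% for the 29, 61.3% for the 800 and 42.4% for the members. The contrast with the members cannot be told apart from base composition. By array, ZNF628 to ZNF835 differed. There 3 of 8 interspersed protein-coding genes of any name were lower and none higher, at a median of -0.17, so both kinds leaned lower. ZNF101 to ZNF254 held no such tested gene and ZNF175 to ZNF331 held 2. In the most uniform array, PPP2R1A, a scaffold subunit of protein phosphatase PP2A, and SPACA6 differed by 0.04 and -0.07 and did not pass. The members next to PPP2R1A on either side rose. Of 9 interspersed genes with other zinc finger names (ZFP, ZSCAN, or ZNF with a letter), ZNF585A, ZNF585B, ZFP30 and ZFP14 rose and ZNF324B and the read-through gene ZNF8-ERVK3-1 fell, at a median of 0.17.

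Genes of KRAB corepressors and of heterochromatin factors linked to them, taken as a single list, were called lower more often than higher. Of 25 listed corepressor and heterochromatin genes, 24 were tested, and 12 fell, 2 rose and 10 did not pass, at a median log2 fold change of -0.10. Over all tested genes, 28.1% were called lower and 28.6% higher. The median level of the 24 genes was 2161 normalized read counts, against 480.7 over all tested genes. Small changes pass more easily at high levels, and no set of the same level was compared. With equal totals, 7 fell and 7 rose, at a median of -0.02. The count of rises was 5 without siNT replicate 1 and 1 without any one of siNT replicate 2, siNT replicate 3, siYAP replicate 2 and siYAP replicate 3. TRIM28, the shared corepressor of KRAB proteins, lies at 58544091 to 58550722, just past the last ZNF array. It read 25686, 28234 and 28602 normalized read counts in siNT and 20347, 19606 and 17969 in siYAP. All siYAP libraries were below, at means of 19307 ± 1217 against 27507 ± 1588 (SD, n = 3; log2 -0.51; limma, adjusted p = 7.07e-09).

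SETDB1, the histone methyltransferase that TRIM28 recruits, was at 943.0 ± 23.5 and 926.6 ± 25.2 (SD, n = 3) and did not pass (log2 -0.03; limma, adjusted p = 0.728). TASOR, a core subunit of the HUSH silencing complex, fell from 3424 ± 114 to 2019 ± 59.7 (SD, n = 3; log2 -0.76). The histone methyltransferase genes SUV39H2 (log2 -0.81) and SUV39H1 (log2 -0.29) and the DNA methyltransferase gene DNMT1 (log2 -0.35) fell as well. Of the paired remodelling ATPases of the NuRD complex, CHD4 fell (log2 -0.30) and CHD3 rose (log2 0.36). Whether any of these changes had a part in those of the ZNF genes was not tested.

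**Figure D5:**
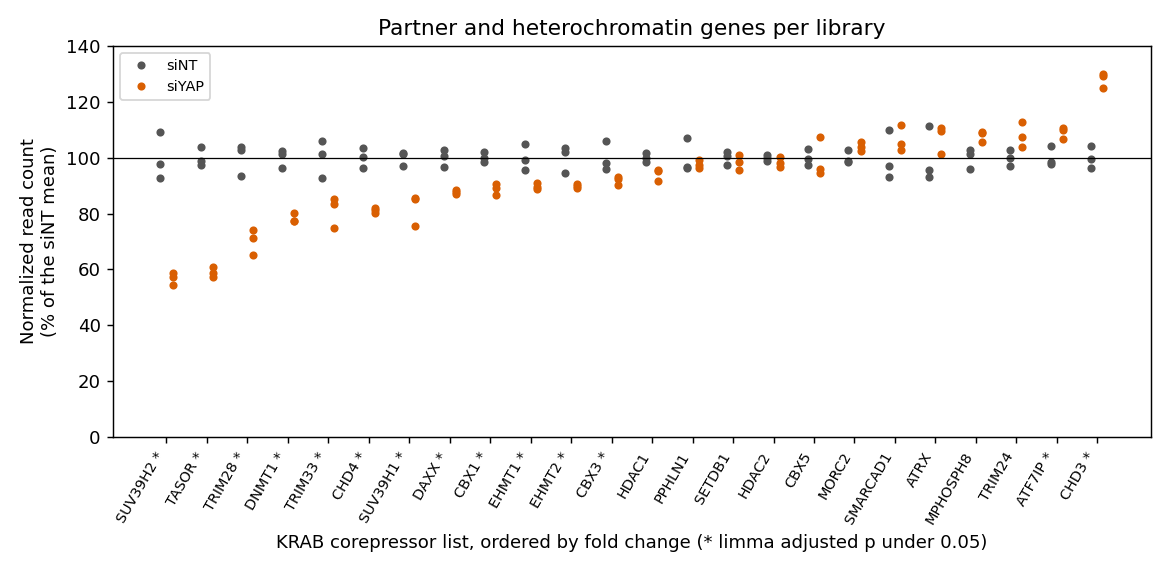
Normalized read counts of the 24 tested corepressor and heterochromatin genes in each library, as percent of the gene's siNT mean, ordered by log2 fold change; asterisks mark a limma adjusted p under 0.05. TRIM28, TASOR and SUV39H2 are clearly below 100% in all siYAP libraries, while SETDB1 overlaps between groups.

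Promoter sequence was examined because neighbouring members moved together. RefSeq promoters (GRCh38.p14) were matched for 154 members. The 250 bases upstream of the start are shown for ZNF468, ZNF765 and ZNF83, which rose in the same array. Capitals there mark stretches of at least 12 bases that all 3 share, and shorter shared stretches stay in lower case. The same window is shown for ZNF787, which fell, with capitals on overlapping matches of the ETS factor motif CCGGAAG on both strands.
ZNF468 (chr19:52857620-52857869, minus strand): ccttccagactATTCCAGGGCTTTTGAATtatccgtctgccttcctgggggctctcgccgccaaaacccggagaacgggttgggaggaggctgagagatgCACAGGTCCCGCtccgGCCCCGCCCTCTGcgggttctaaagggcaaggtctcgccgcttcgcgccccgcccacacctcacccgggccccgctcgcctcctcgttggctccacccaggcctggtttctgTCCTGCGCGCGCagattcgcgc
ZNF765 (chr19:53394899-53395148, plus strand): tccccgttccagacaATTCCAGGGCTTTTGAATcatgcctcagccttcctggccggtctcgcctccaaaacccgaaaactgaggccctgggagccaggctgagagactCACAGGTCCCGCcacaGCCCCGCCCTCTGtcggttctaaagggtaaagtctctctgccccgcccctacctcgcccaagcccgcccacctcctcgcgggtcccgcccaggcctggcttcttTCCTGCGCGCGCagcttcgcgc
ZNF83 (chr19:52690497-52690746, minus strand): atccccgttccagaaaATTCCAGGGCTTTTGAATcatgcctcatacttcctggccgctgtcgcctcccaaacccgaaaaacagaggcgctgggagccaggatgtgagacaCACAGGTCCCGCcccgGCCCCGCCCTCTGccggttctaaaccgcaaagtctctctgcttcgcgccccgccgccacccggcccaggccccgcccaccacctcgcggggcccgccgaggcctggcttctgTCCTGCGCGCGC
ZNF787 (chr19:56121296-56121545, minus strand): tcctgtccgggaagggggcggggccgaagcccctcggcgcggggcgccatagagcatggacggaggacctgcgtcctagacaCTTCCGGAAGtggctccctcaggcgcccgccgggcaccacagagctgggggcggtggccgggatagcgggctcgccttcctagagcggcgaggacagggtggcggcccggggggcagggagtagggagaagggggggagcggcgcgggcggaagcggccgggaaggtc

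The RefSeq start of ZNF468 lies beside the GENCODE start of ZNF28, at 52857600, and not at that of ZNF468, at 52890375, and the RefSeq start of ZNF765 lies inside its GENCODE span, which begins at 53389793.

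The longest capital stretch, ATTCCAGGGCTTTTGAAT, was chosen after the changes were seen. It occurred in 8 of 27305 promoters, of which 5 belong to tested members (ZNF468, ZNF525, ZNF765, ZNF83 and ZNF845). All 5 were called higher, but ZNF468, ZNF765 and ZNF83 were picked as members that rose and define the stretch. All 5 also lie in the array from ZNF175 to ZNF331, where 25 of 29 tested members were called higher. The count therefore cannot tell the stretch from the array. Motifs were then counted on both strands in the window of 250 bases upstream to 50 downstream. The TEAD motif GGAATG was in 22 of the 154 promoters (14.3%), against 14.0% of all 27305 and 10.7% of those of listed protein-coding genes. The AP-1 motif TGANTCA was in 13 (8.44%), against 7.76% and 4.59%. The ETS motif CCGGAAG was in 65 (42.2%), against 10.7% and 18.4%, among them 38 of 79 members that rose and 5 of 14 that fell. A match is not a binding site, and these shares were not tested.

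Shared sequence and overlapping exons were examined by leaving members out. Leaving out members of which 10% or more of the coding 50-base stretches occur in another gene's transcripts kept 127, with 63 higher and 15 lower. Leaving out members whose exons overlap another listed gene kept 125, with 64 higher and 8 lower. Both alternatives were added after the data were seen. With 3 libraries a group, the smallest p an exact permutation test allows is 0.1, so none was run.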

How the data were processed

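Poly(A) RNA from CAOV2 cells was sequenced in 3 siNT and 3 siYAP libraries with a stranded kit, per the labels' protocols. The deposited table gives a signal for each gene in each library. The submitters' processing notes name FastQC, HISAT2, HTSeq, DESeq2 and 2 builds (hg19, mm9). Versions, what each build served for, strand setting and gene filter are not given in these sources. In each library 100% of the deposited signal values were whole multiples of 1 read within 0.01, so they are read counts over a size factor, and 25478595 to 31790340 reads were recovered per library. Because values were normalized, limma 3.58.1 (trend, robust; R 4.3.3) on log2(value + 1) replaced the edgeR test planned for raw counts. Genes reaching 1 in 3 or more libraries were tested, p-values were adjusted by Benjamini-Hochberg over all of them, and calls used 0.05. Group was the only term.

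Members were found by symbol and chromosome in GENCODE 29 (GRCh38) through Ensembl identifiers; 16743 of 17211 listed identifiers matched. Members and lists were chosen with earlier results of these data known. Fingers and KRAB boxes (within the first 200 residues) were searched in 1 translated coding sequence per gene. Named were the 10 largest rises and falls among called members whose groups do not overlap and whose mean reaches 20, the 5 highest levels per length, the smallest p of each array, up to 5 members with a mean of at least 100 nearest to 0, and from the corepressor list TRIM28, SETDB1 and up to 6 by p. Other members in the text were chosen after their values were seen. Alternatives were edgeR 4.0.16 and DESeq2 1.42.0 on recovered reads, other scalings, filters, a pseudocount of 0.1, no trend, the replicate block, libraries left out, and corrections for GC content and length. The fit was tested on simulated data.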

Additional observations from a re-analysis of the deposited data

How the results depend on the processing

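Besides the reported setting, 18 others were run. Members called higher ranged from 77 (DESeq2 on recovered reads) to 106 (equal totals), and leaving out 1 library gave 79 to 91 higher and 9 to 15 lower. edgeR on recovered reads called 90 higher and 14 lower of 167. Deviations of same-numbered libraries from their group means correlated at r = -0.17, 0.0034 and 0.0050, and those of other pairs at -0.18 to 0.18. Deviations from a mean of 3 libraries are tied to each other, so this cannot exclude a shared culture or batch. With the replicate block 85 members were higher and 14 lower, and 1 corepressor gene was higher.

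With equal totals 6 members were lower and the median was 0.45. KRAB members then had 2 lower and a median of 0.51, those without a box 4 lower and 0.21, and corepressor genes 7 higher, 7 lower and a median of -0.016. The GC correction gave a member median of 0.29. DESeq2 gave 2 KRAB members lower, and limma without trend 7 lower among those without a box and 1 corepressor gene higher. The length correction gave 1 corepressor gene higher and upper-quartile factors 4. Leaving out 1 library gave 2 to 4 KRAB members lower, 7 to 13 lower without a box at medians of 0.077 to 0.15, and 1 to 5 corepressor genes higher. With the pattern ending in tryptophan or leucine, 20% of members without a box were higher.

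Among the named values, signs changed for these. The median of the ZNF302 to ZNF792 array was -0.032 with the GC correction, -0.00889 with the length correction and -0.00517 to 0.092 leaving out 1 library. ZNF146 was at -0.136 and called lower with the GC correction, 0.070 with equal totals, 0.0011 with upper-quartile factors and -0.063 to 0.038 leaving out 1 library. ZNF180 was at -0.090 and -0.043 with the GC and length corrections and -0.063 to 0.070 leaving out 1 library. ZNF30 was at -0.032 with the GC correction and -0.048 to 0.099 leaving out 1 library. ZNF875 was at 0.018 with the GC correction, 0.067 with equal totals and -0.056 to 0.00050 leaving out 1 library. ZNF584 ranged from -0.032 to 0.063 leaving out 1 library, and SETDB1 was at 0.023 and 0.062 with the GC correction and equal totals. The causes were not tested. Depth limits the 18 members with a mean under 20.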

Other observations

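Some KRAB members did not pass the test among neighbours that rose. ZNF285, in the ZNF575 to ZNF180 array, read 90.1, 90.9 and 88.2 normalized read counts in siNT and 87.9, 102.6 and 99.9 in siYAP (log2 0.11; limma, adjusted p = 0.521). ZNF221, in the same array, overlapped between groups at low counts, with 17.8, 28.9 and 21.8 against 19.9, 25.7 and 19.97. ZNF175, at the edge of the most uniform array, read 217.8, 212.7 and 199.4 in siNT and 221.1, 210.2 and 237.8 in siYAP (log2 0.09). ZNF586, between members that rose in the last array, was at 334.0, 274.7 and 280.4 and at 269.1, 273.4 and 294.9 (log2 -0.08). These members were picked after their values were seen.

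The array boundaries were also drawn at 250 kb and at 1000 kb. At 250 kb the array from ZNF101 to ZNF254 divided into a part of 7 members, with 5 higher and a median of 0.60, and a part of 13, with 10 higher and a median of 0.51. At 1000 kb the arrays from ZNF628 onwards joined into 42 members with 15 higher, 8 lower and a median of 0.13, which hides the members lower between ZNF784 and ZNF787.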
